A study of Mus musculus with 9 samples.

Results

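The ubiquitin-specific protease (USP) and ovarian tumour domain (OTUD) genes are described here by their transcript levels in a mouse B cell lymphoma given a BET inhibitor for 2 h. Members were all genes whose symbol starts with Usp or Otud followed by a digit and whose mean level was at least 1 CPM over the 9 libraries (CPM, counts scaled to the library total). Of 43629 genes in the count table, 67 carried such a symbol and 48 reached that level, 42 with the prefix Usp and 6 with the prefix Otud. Another 10 lay below 1 CPM, and 9 had no count in any library. The member nearest to the threshold was Usp46os1 at 2.52 CPM and the nearest gene below it was Usp18 at 0.430 CPM, so that thresholds of 0.5 and 2 CPM gave the same 48 genes. The name rule also takes in genes that encode no deubiquitinase. Usp6nl encodes a GTPase-activating protein for Rab GTPases, and Usp46os1 and Usp46os2 are transcripts from the strand opposite Usp46, which leaves 45 genes of deubiquitinase families. Among these, Usp39 and Usp50 encode proteins that lack a working protease centre.

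The cells were Eµ-Myc lymphoma clone 4242, a single clone grown in culture from a mouse line in which the immunoglobulin heavy chain enhancer drives a Myc transgene in B lineage cells. All 3 groups carry this transgene. The groups were 3 libraries with DMSO, the solvent, 3 with JQ1 at 1 µM and 3 with RG6146 at 2.5 µM. All treatments lasted 2 h. JQ1 and RG6146 block the bromodomains of BET proteins, which read acetylated histones at enhancers and promoters and help RNA polymerase II into elongation. Libraries were made from total RNA with the QuantSeq kit, which reads the polyadenylated 3′ end of a transcript. They held 3410161 to 5031717 gene counts each. The sample titles number the replicates without saying whether they were separate cultures. Since all libraries came from 1 clone, the p-values below measure the spread between libraries of that clone.

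Deubiquitinases cut ubiquitin off proteins and so oppose the ubiquitin ligases. They rescue proteins from the proteasome, recycle ubiquitin, and edit signals that ubiquitin carries on histones, on DNA repair factors, on membrane receptors and in NF-kappaB signalling. USP enzymes form the largest family, and OTUD enzymes belong to a separate cysteine protease family that often prefers particular ubiquitin linkages. In B cell lymphoma several of them are known for acting on MYC, p53 or their regulators.

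The sequences before the start sites of 3 members are shown because these genes, with Usp22, were the deubiquitinase genes that passed the test and rose at least 1.5-fold with both compounds. For Usp22 no sequence is shown. Each line gives the 250 bases before the RefSeq start on GRCm38.p6, 5′ to 3′ on the strand of the gene. Capitals mark GGGCGG, the GC box, or CCAAT on either strand. The palindrome CACGTG, the E-box that MYC and MAX bind, was searched too and is in none of the 3.
Usp20, chr2:30982029-30982278, plus strand: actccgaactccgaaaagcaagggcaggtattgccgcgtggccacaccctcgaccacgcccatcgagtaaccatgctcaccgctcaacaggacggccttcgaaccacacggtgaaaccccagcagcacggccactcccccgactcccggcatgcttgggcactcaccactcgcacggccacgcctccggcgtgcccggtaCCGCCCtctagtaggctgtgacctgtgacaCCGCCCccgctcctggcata
Usp37, chr1:74505822-74506071, minus strand: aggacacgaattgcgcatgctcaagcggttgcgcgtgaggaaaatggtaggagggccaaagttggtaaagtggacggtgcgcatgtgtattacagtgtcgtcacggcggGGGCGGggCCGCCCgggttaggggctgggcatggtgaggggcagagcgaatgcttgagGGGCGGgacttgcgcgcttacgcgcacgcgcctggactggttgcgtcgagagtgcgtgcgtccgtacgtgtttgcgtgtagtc
Usp49, chr17:47630440-47630689, plus strand: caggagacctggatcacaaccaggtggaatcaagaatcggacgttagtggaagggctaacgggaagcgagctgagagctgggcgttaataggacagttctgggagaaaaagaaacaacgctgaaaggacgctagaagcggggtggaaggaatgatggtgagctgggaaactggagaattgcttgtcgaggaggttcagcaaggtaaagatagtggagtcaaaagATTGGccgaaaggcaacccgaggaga
The window of Usp20 shares 173 bases with an exon of a retained-intron transcript of BC005624 on the opposite strand. The window of Usp37 lies inside the longer Usp37 model of GENCODE, which ends at 74544284 on that strand, and shares 14 bases with an exon of the divergent gene Cnot9.

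RefSeq windows were held for 37 of the 48 members. In the 250 bases before the start, on either strand, 26 of these 37 genes (70.3%) had GGGCGG, against 35.4% of all 27025 genes with a window. CACGTG stood before 6 (16.2%), against 6.86% of all genes. CCAAT stood before 7 (18.9%), against 37.5%. Among the 8 members with a window that rose with either compound, 6 had GGGCGG, 1 had CACGTG and 1 had CCAAT. Among the 5 that fell these numbers were 5, 1 and 1, and among the 24 that did not pass the test 15, 4 and 5. The genes with a window were not filtered by level, whereas members had to reach 1 CPM in these cells. The 2 sets are therefore unlike, and the shares do not show a trait of the family. These are matches of letters and not binding sites, and the motifs were chosen after the expression values were seen.

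Transcript levels were compared with DMSO to ask which deubiquitinase genes differ after 2 h of BET inhibition. Levels are CPM scaled by TMM, which assumes that most genes do not differ. Log2 fold changes carry standard errors (SE), and every adjusted p below comes from edgeR's quasi-likelihood test with Benjamini-Hochberg adjustment over all 11002 tested genes. A gene was called at an adjusted p below 0.05. All 48 members were tested. After JQ1, 9 members were called higher and 5 lower, which is 29.2% of members against 28.9% of all tested genes. Of all tested genes 13.6% were called higher and 15.4% lower. After RG6146, 10 members were called higher and 3 lower, which is 27.1% of members against 26.0% of all tested genes, where 12.5% were higher and 13.5% lower. As a family the USP and OTUD genes were therefore called about as often as other genes.

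A change of at least 1.5-fold and a call came together in 4 higher and 2 lower members after JQ1, where 15.9% of all tested genes had both. After RG6146 it was 6 higher and 2 lower, and 14.5% of all tested genes. Treated and DMSO libraries stood fully apart in 24 of 48 members after JQ1, against 42.6% of all tested genes, and in 23 after RG6146, against 40.9%. The median log2 fold change of the members was 0.03 after JQ1 and 0.10 after RG6146, beside 0.0047 and 0.0086 over all tested genes. The 95% interval of the median member reached 0.256 to either side of its centre with each compound. Summed over the 48 members the TMM-scaled level was 2485 to 2563 CPM under DMSO, 2574 to 2660 CPM under JQ1 and 2586 to 2694 CPM under RG6146. Without TMM the sums were 2568.5 to 2724 CPM under DMSO, 2484 to 2566 CPM under JQ1 and 2469 to 2698 CPM under RG6146. The JQ1 sums thus lay above DMSO with TMM and below it without, and the RG6146 sums lay above DMSO only with TMM.

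The split between higher and lower members moved with the scaling. With library size scaling, which has no TMM step and shifted the median of all genes to -0.13 after JQ1 and -0.10 after RG6146, 7 members were called higher and 9 lower after JQ1, so that falls outnumbered rises. After RG6146 that scaling gave 10 higher and 6 lower. Scaling by the ERCC spike-ins, synthetic RNAs added in known amount, called 5 higher and 1 lower after JQ1 and 6 and 0 after RG6146, and it called 1196 and 1082 of all genes instead of 3184 and 2863. ERCC scaling alone left the median of all genes at -0.0067 after JQ1 and 0.0406 after RG6146. With the replicate number as an added term the ERCC scaling called 9 and 5, and 10 and 3. Changes named below are therefore changes relative to the bulk of transcripts.

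**Figure D1:**
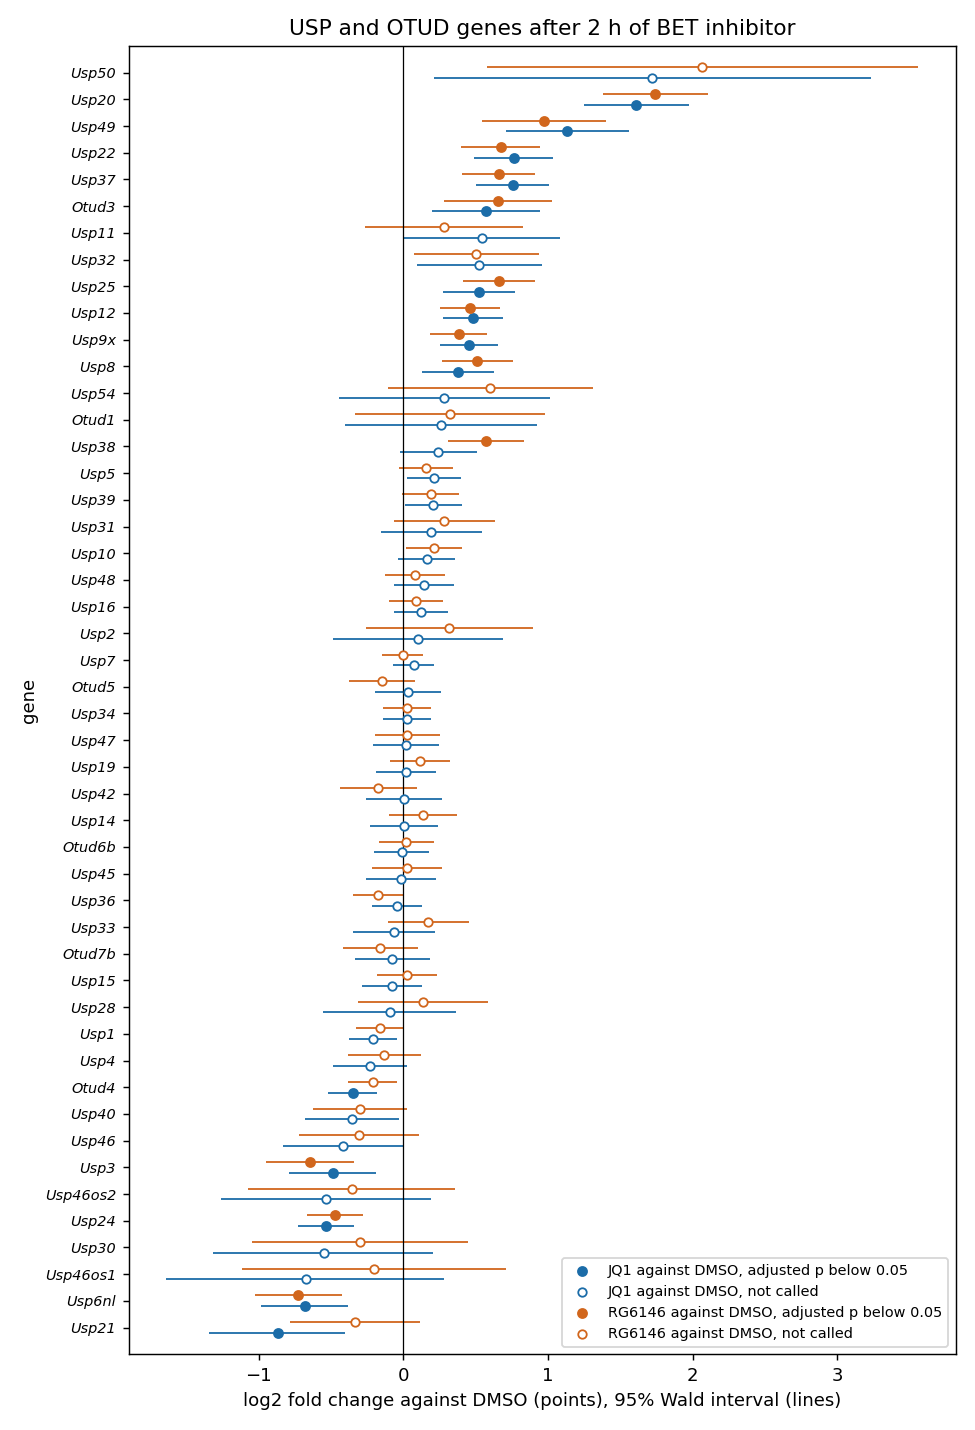
Log2 fold changes of the 48 USP and OTUD members against DMSO after JQ1 (blue) and RG6146 (orange), ordered by their value after JQ1. Points are the log2 fold change, lines the 95% Wald interval around the value without edgeR's prior count, and filled points passed an adjusted p of 0.05; Usp20 has the largest called rise with both compounds, and Usp50 lies above it with wide intervals and open points.

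Of the 48 members, 12 were called with both compounds, 2 with JQ1 alone (Usp21 and Otud4), 1 with RG6146 alone (Usp38) and 33 with neither. The comparisons share their DMSO libraries, and RG6146 against JQ1 called 1 of all 11002 tested genes. How many of all tested genes were called with both compounds was not counted. The overlap is therefore not read as a trait of the members. The 12 had the same direction with both compounds: Usp20, Usp49, Usp22, Usp37, Otud3, Usp25, Usp12, Usp9x and Usp8 were higher, and Usp6nl, Usp24 and Usp3 lower.

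Members were sorted by role after values were seen, and the groups are small. Among the 8 members that act on chromatin, 2 rose and 2 fell after JQ1, and 2 rose and 1 fell after RG6146. These are 50% and 37.5% called, beside 28.9% and 26.0% of all tested genes. Usp22 (chromosome 11, 61151785 to 61175055, minus strand, mm10) encodes the protease of the deubiquitinase module of SAGA, the coactivator complex, where it takes ubiquitin off histone H2B. Its level was 36.7, 39.2 and 42.7 CPM under DMSO, 66.9, 75.0 and 59.1 CPM under JQ1 and 50.4, 68.6 and 70.0 CPM under RG6146. All 6 treated libraries lay above all 3 DMSO libraries. Usp22 rose by 0.76 ± 0.13 (SE) on the log2 scale after JQ1 (adjusted p = 0.000244) and by 0.67 ± 0.13 after RG6146 (adjusted p = 0.000825). Usp49 (chromosome 17, 47630690 to 47686738, plus strand), another H2B deubiquitinase that is known for a part in splicing, had 7.90, 7.96 and 8.63 CPM under DMSO. It had 13.3, 23.1 and 17.5 CPM under JQ1 and 13.9, 16.7 and 17.5 CPM under RG6146. Again no treated library reached down to the DMSO level, although the JQ1 libraries spread widely. The log2 fold change of Usp49 was 1.13 ± 0.20 after JQ1 (adjusted p = 0.000385) and 0.97 ± 0.20 after RG6146 (adjusted p = 0.00168). The last 93 bases of Usp49 overlap Tomm6 on the opposite strand. Tomm6 had 113 to 136 CPM under DMSO, 129 to 138 CPM under JQ1 and 132 to 157 CPM under RG6146 and was not called. The readthrough model Gm20517 covers 53172 bases of Usp49 on the same strand and rose too, by 1.66 (adjusted p = 0.00162) and 1.68 (adjusted p = 0.00161), so reads of both may be split between them.

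The members of this class that fell take ubiquitin off histone H2A. Usp21 (chromosome 1, 171281945 to 171287991, minus strand) had 10.2, 12.8 and 12.7 CPM under DMSO, 7.37, 6.66 and 5.23 CPM under JQ1 and 7.52, 11.9 and 8.86 CPM under RG6146. The JQ1 libraries lay below the DMSO libraries, and the RG6146 libraries overlapped them. Usp21 fell by 0.87 ± 0.22 on the log2 scale after JQ1 (adjusted p = 0.0067), and its log2 fold change after RG6146 was -0.33 ± 0.21 (adjusted p = 0.278). With 20 to 54 counts per library it was among the members with few counts. Usp3 (chromosome 9, 66514637 to 66593142, minus strand), which also acts in the DNA damage response, had 27.6, 29.0 and 27.1 CPM under DMSO, 19.4, 20.9 and 19.3 CPM under JQ1 and 21.2, 18.0 and 14.3 CPM under RG6146. Usp3 was lower in all 6 treated libraries than in any DMSO library, by 0.49 ± 0.14 after JQ1 (log2 fold change -0.49, adjusted p = 0.0163) and 0.65 ± 0.15 after RG6146 (log2 fold change -0.65, adjusted p = 0.003). Its call after JQ1 ended without DMSO replicate 2, JQ1 replicate 1 or JQ1 replicate 3 (adjusted p 0.0522 to 0.0617) and in DESeq2 (adjusted p = 0.0884).

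Usp36, a nucleolar enzyme known to stabilise MYC, had 97.0, 109 and 110 CPM under DMSO, 106, 98.5 and 101 CPM under JQ1 and 96.2, 90.6 and 92.5 CPM under RG6146. The RG6146 libraries were all below the DMSO libraries, by a small amount. Its log2 fold changes of -0.05 ± 0.08 (adjusted p = 0.72) and -0.18 ± 0.08 (adjusted p = 0.126) were not called, the latter except with library size scaling (adjusted p = 0.0145). Usp16, Usp42 and Usp48, which have also been tied to histone ubiquitin, were not called either, with log2 fold changes from 0.01 to 0.15 after JQ1 and from -0.17 to 0.09 after RG6146.

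The partners of Usp22 in the SAGA module did not all move its way. ATXN7L3 and ENY2 are needed for USP22 to be active, and ATXN7 anchors the module to SAGA. Atxn7l3 had 82.0, 106 and 104 CPM under DMSO, 178, 132 and 174 CPM under JQ1 and 140, 120 and 172 CPM under RG6146. It rose by 0.73 ± 0.17 after JQ1 (adjusted p = 0.0107) and by 0.57 ± 0.17 after RG6146 (adjusted p = 0.0358), and the call after RG6146 ended without any of 5 libraries, DMSO replicate 1, 2 or 3 or RG6146 replicate 1 or 3 (adjusted p 0.051 to 0.0913). Eny2 had 254, 262 and 268 CPM under DMSO, 366, 330 and 381 CPM under JQ1 and 362, 341 and 371 CPM under RG6146. Its rise was 0.46 ± 0.07 after JQ1 (adjusted p = 0.000148) and 0.45 ± 0.07 after RG6146 (adjusted p = 0.000191), with all treated libraries above DMSO. Atxn7 overlapped between the groups, at 0.19 ± 0.16 (adjusted p = 0.415) and 0.13 ± 0.16 (adjusted p = 0.588).

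Atxn7l1, which encodes a relative of ATXN7, fell with both compounds. It had 9.22, 8.81 and 10.3 CPM under DMSO, 2.31, 3.33 and 1.83 CPM under JQ1 and 2.05, 0.759 and 3.18 CPM under RG6146. This fall, to a log2 fold change of -1.91 ± 0.34 after JQ1 (adjusted p = 0.000411) and -2.20 ± 0.36 after RG6146 (adjusted p = 0.000161), was larger than that of any called member. Atxn7l2, at 2.40 to 3.95 CPM under DMSO, 1.26 to 1.90 CPM with JQ1 and 1.77 to 3.18 CPM with RG6146, had -1.12 ± 0.42 after JQ1 (adjusted p = 0.0498) and -0.30 ± 0.38 after RG6146 (adjusted p = 0.609). That call ended without any of 8 libraries, all but DMSO replicate 3 (adjusted p 0.0527 to 0.189). Atxn7l3b, which encodes a relative of ATXN7L3, had 121 to 131 CPM under DMSO, 103 to 107 CPM with JQ1 and 105 to 127 CPM with RG6146. Its values were -0.25 ± 0.09 after JQ1 (adjusted p = 0.0378) and -0.15 ± 0.09 after RG6146 (adjusted p = 0.213). Its call after JQ1 ended without any 1 of the DMSO or JQ1 libraries (adjusted p 0.0596 to 0.126), and after RG6146 it was called without RG6146 replicate 3 (adjusted p = 0.0485). Atxn7, as a partner in the module, and the relatives Atxn7l2 and Atxn7l3b are named here after their values were seen.

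**Figure D2:**
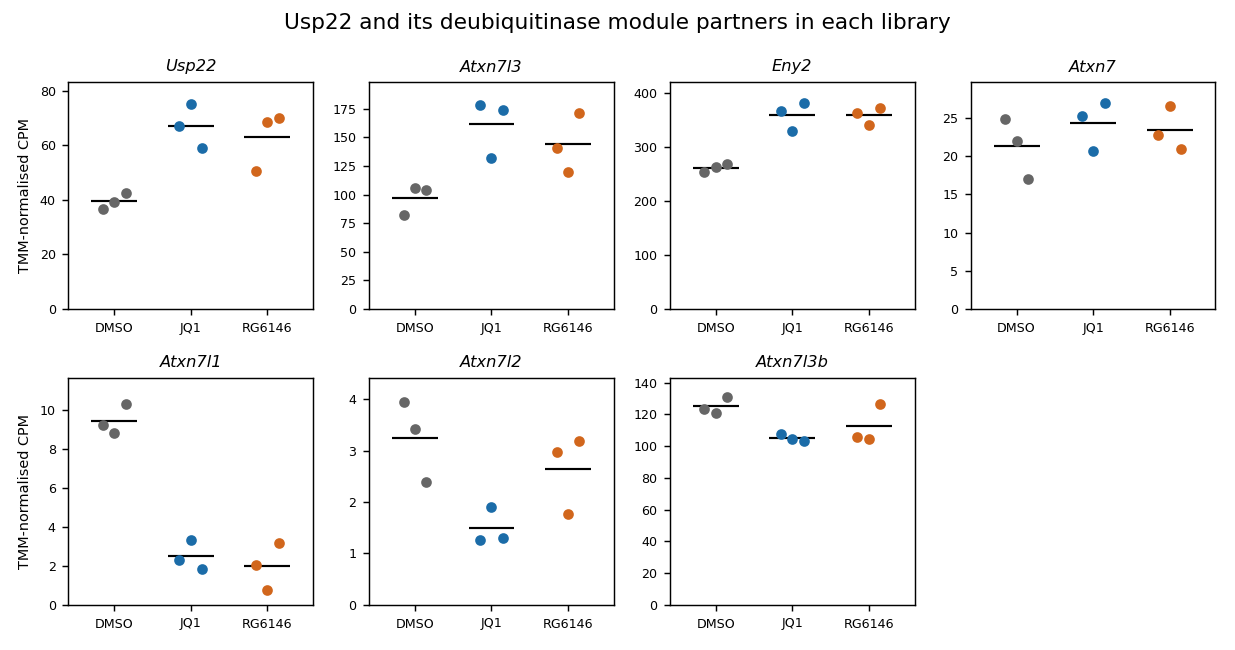
TMM-normalised CPM of Usp22 and 6 genes of its deubiquitinase module or their relatives in each of the 9 libraries. Points are libraries, lines group means, and every vertical axis starts at 0; Usp22, Atxn7l3 and Eny2 are higher in all treated libraries than under DMSO, and Atxn7l1 is lower in all of them.

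Of 13 members placed with DNA damage, replication and p53, 2 rose and 2 fell after JQ1, and 2 rose and 1 fell after RG6146. These are 30.8% and 23.1% called, beside 28.9% and 26.0% of all tested genes. Usp37 (chromosome 1, 74435511 to 74544284, minus strand) encodes an enzyme that protects cyclin A and supports DNA replication. Its level was 35.0, 41.5 and 40.3 CPM under DMSO, 63.1, 62.6 and 71.1 CPM under JQ1 and 60.9, 51.6 and 71.3 CPM under RG6146. Every treated library exceeded every DMSO library, and Usp37 rose by 0.76 ± 0.12 after JQ1 (adjusted p = 0.00013) and by 0.66 ± 0.12 after RG6146 (adjusted p = 0.000512). Its last 49 bases overlap Vil1 on the opposite strand, which had 0.959 to 4.44 CPM over the 9 libraries. The group means of Vil1 were 1.77, 3.42 and 3.13 CPM under DMSO, JQ1 and RG6146. Its log2 fold changes of 0.97 (adjusted p = 0.097) and 0.86 (adjusted p = 0.155) were not called. Usp12, which works with the WD40 repeat protein WDR48, had 38.6, 36.7 and 39.1 CPM under DMSO, 56.4, 52.1 and 51.2 CPM under JQ1 and 52.4, 55.9 and 49.1 CPM under RG6146, with no overlap. Usp12 rose by 0.48 ± 0.10 (adjusted p = 0.00121) and by 0.46 ± 0.10 (adjusted p = 0.00202). Wdr48 itself, the shared partner of USP1, USP12 and USP46, was not called, at -0.19 ± 0.12 (adjusted p = 0.258) and -0.15 ± 0.12 (adjusted p = 0.377).

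Usp24 and Otud4 were the members of this class that fell. Usp24, whose product acts on the damage sensor DDB2 and on p53, was at 75.6 ± 4.67 CPM under DMSO, 52.2 ± 2.18 under JQ1 and 54.5 ± 1.42 under RG6146 (SD, n = 3). Its log2 fold changes were -0.53 ± 0.09 (adjusted p = 0.000258) and -0.47 ± 0.09 (adjusted p = 0.000843), with no overlap between treated and DMSO libraries. Otud4, which serves in the repair of alkylated DNA, had 197, 184 and 191 CPM under DMSO, 154, 147 and 148 CPM under JQ1 and 179, 167 and 148 CPM under RG6146. It fell by 0.35 ± 0.08 after JQ1 (log2 fold change -0.35, adjusted p = 0.00333). After RG6146 all 3 libraries also lay below DMSO, but the log2 fold change of -0.21 ± 0.08 missed the threshold (adjusted p = 0.0624), which it passed without RG6146 replicate 1 (adjusted p = 0.0372), with library size scaling (adjusted p = 0.00892) and among genes of at least 10 CPM (adjusted p = 0.0274).

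The best known p53 and MYC deubiquitinases of this class were not called. Usp7, which guards both MDM2 and p53, had 271, 256 and 266 CPM under DMSO, 275, 281 and 280 CPM under JQ1 and 265, 269 and 258 CPM under RG6146. The JQ1 libraries lay just above DMSO, and the RG6146 libraries within its range. Its log2 fold changes were 0.07 ± 0.07 (adjusted p = 0.457) and -0.0045 ± 0.07 (adjusted p = 0.974), with 95% intervals from -0.07 to 0.22 and from -0.15 to 0.14. Usp28, which protects MYC from the ligase FBXW7, had 8.65, 7.11 and 9.11 CPM under DMSO, 8.84, 6.66 and 7.84 CPM under JQ1 and 8.89, 7.59 and 10.9 CPM under RG6146. These groups overlapped, and the values of -0.10 ± 0.22 (adjusted p = 0.784) and 0.13 ± 0.21 (adjusted p = 0.692) have wide intervals, from -0.55 to 0.36 and from -0.31 to 0.58. Usp10, which acts on p53 in the cytoplasm, had 53.8, 59.4 and 62.8 CPM under DMSO, 64.2, 63.8 and 68.8 CPM under JQ1 and 70.9, 64.8 and 68.2 CPM under RG6146. All treated libraries were above DMSO, by 0.16 ± 0.09 (adjusted p = 0.215) and 0.21 ± 0.09 (adjusted p = 0.104), and neither was called. Usp10 shares its strand with the readthrough model Gm20388, so reads of both may be split.

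Usp1, which cuts ubiquitin from FANCD2 and PCNA, had 244, 251 and 250 CPM under DMSO, 228, 193 and 224 CPM under JQ1 and 220, 235 and 212 CPM under RG6146. Every treated library lay below every DMSO library. Its log2 fold changes of -0.21 ± 0.08 (adjusted p = 0.0592) and -0.16 ± 0.08 (adjusted p = 0.152) were not called, but with library size scaling they were (adjusted p = 0.00341 and 0.0191), and after JQ1 also among genes of at least 10 CPM (adjusted p = 0.025). The other members of this class, Usp4, Usp11, Usp45, Usp46 and Usp47, were not called and had log2 fold changes from -0.41 to 0.54 after JQ1 and from -0.31 to 0.28 after RG6146.

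The 7 deubiquitinases of endosomes, membranes and organelles gave 3 rises and no fall with each compound. That is 42.9% called, beside 28.9% and 26.0% of all tested genes, of which 13.6% and 12.5% were called higher. With so few genes, grouped after values were seen, this is not read as a trait of the class. Usp20 (chromosome 2, 30982279 to 31023586, plus strand) encodes an enzyme found with the VHL ligase that also steers receptor recycling and cholesterol synthesis. Its level was 5.83, 7.11 and 9.11 CPM under DMSO, 23.6, 20.5 and 22.7 CPM under JQ1 and 25.1, 25.8 and 22.3 CPM under RG6146. The lowest treated library was thus well above the highest DMSO library. Usp20 rose by 1.61 ± 0.17 on the log2 scale after JQ1 (3.05-fold, adjusted p = 2.17e-06) and by 1.74 ± 0.17 after RG6146 (3.33-fold, adjusted p = 9.79e-07). No other gene of at least 0.5 CPM was found to overlap it. Usp33, its closest relative, overlapped between the groups, at -0.06 ± 0.14 (adjusted p = 0.765) and 0.17 ± 0.13 (adjusted p = 0.371).

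Usp9x, a large X-linked enzyme known to protect MCL1 and many other proteins, had 69.6, 69.7 and 68.8 CPM under DMSO, 92.4, 92.8 and 99.9 CPM under JQ1 and 103, 86.8 and 81.6 CPM under RG6146. The DMSO libraries lay close together and every treated library above them. Its rises were 0.45 ± 0.09 after JQ1 (adjusted p = 0.00138) and 0.38 ± 0.09 after RG6146 (adjusted p = 0.00556). Usp8, which sorts receptors at endosomes, had 53.6, 46.3 and 50.1 CPM under DMSO, 63.3, 54.3 and 77.6 CPM under JQ1 and 74.8, 66.8 and 72.7 CPM under RG6146. JQ1 replicate 2 lay only just above the DMSO range. Usp8 rose by 0.38 ± 0.12 (adjusted p = 0.0226) and 0.51 ± 0.12 (adjusted p = 0.00347). The call after JQ1 ended without DMSO replicate 2 or 3 or without JQ1 replicate 3 (adjusted p 0.0556 to 0.156), and the log2 fold change was 0.24 without JQ1 replicate 3. It also ended in DESeq2 (adjusted p = 0.0602) and with library size scaling (adjusted p = 0.139).

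Usp50 lies on the strand opposite Usp8 and shares 50202 bases with it, so reads of these genes may not be separated. It had 9.59, 6.54 and 5.99 CPM under DMSO, 18.1, 22.8 and 33.7 CPM under JQ1 and 50.9, 32.4 and 11.1 CPM under RG6146. All treated libraries were above DMSO, but RG6146 replicate 3 lay close to it. Its log2 fold changes of 1.72 ± 0.62 (adjusted p = 0.0902) and 2.06 ± 0.61 (adjusted p = 0.0536) were the highest of any member and were not called. Without RG6146 replicate 3 the test called both (adjusted p = 0.00614 and 0.00184), as did DESeq2 (adjusted p = 0.0157 and 0.00292) and ERCC scaling. These values of Usp50 are given because its size stood out after the values were seen. Usp32, a Golgi and endosome enzyme, was at 7.18 ± 0.875 CPM under DMSO, 10.3 ± 0.287 under JQ1 and 10.1 ± 2.00 under RG6146. It had 0.53 ± 0.21 (adjusted p = 0.0633) and 0.50 ± 0.21 (adjusted p = 0.0812), and without RG6146 replicate 2 the latter was called (adjusted p = 0.0433). Usp19, anchored in the endoplasmic reticulum, and Usp30, on mitochondria, were not called, at 0.02 and -0.55 after JQ1 and 0.11 and -0.30 after RG6146.

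Among 8 members known from immune signalling, 2 rose after JQ1 and 3 after RG6146, and none was called lower. These are 25% and 37.5% called, beside 28.9% and 26.0% of all tested genes, of which 13.6% and 12.5% were called higher. The group is again small. Usp25 (chromosome 16, 77013706 to 77116780, plus strand) acts on TRAF proteins downstream of cytokine and pattern receptors. It had 51.3, 37.0 and 38.1 CPM under DMSO, 61.0, 60.9 and 60.7 CPM under JQ1 and 71.8, 66.3 and 62.7 CPM under RG6146. Each treated library was above each DMSO library, and the rises were 0.52 ± 0.12 (adjusted p = 0.0026) and 0.66 ± 0.12 (adjusted p = 0.000423). Otud3 (chromosome 4, 138895379 to 138913945, minus strand), known for a part in antiviral signalling, had 13.0, 9.95 and 13.2 CPM under DMSO. It had 17.7, 20.7 and 15.7 CPM under JQ1 and 17.6, 16.7 and 22.9 CPM under RG6146, again without overlap. Otud3 rose by 0.57 ± 0.18 after JQ1 (adjusted p = 0.0213) and by 0.65 ± 0.18 after RG6146 (adjusted p = 0.0103). The first call ended without DMSO replicate 2 or JQ1 replicate 2 (adjusted p = 0.0849 and 0.0875) and with library size scaling (adjusted p = 0.0731), and the second without RG6146 replicate 3 (adjusted p = 0.0677). DESeq2 called neither (adjusted p = 0.0982 and 0.0558).

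Usp38, which acts on the kinase TBK1, had 34.8, 27.9 and 27.8 CPM under DMSO, 32.8, 40.2 and 34.5 CPM under JQ1 and 48.3, 39.5 and 47.0 CPM under RG6146. The JQ1 libraries overlapped DMSO and the RG6146 libraries did not. It rose by 0.57 ± 0.13 after RG6146 (adjusted p = 0.0025) and had 0.24 ± 0.13 after JQ1 (adjusted p = 0.165). Usp15, Usp31, Otud1, Otud5 and Otud7b, several of which restrain or support NF-kappaB and interferon signalling, were not called. Their log2 fold changes lay between -0.08 and 0.26 after JQ1 and between -0.16 and 0.32 after RG6146.

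**Figure D3:**
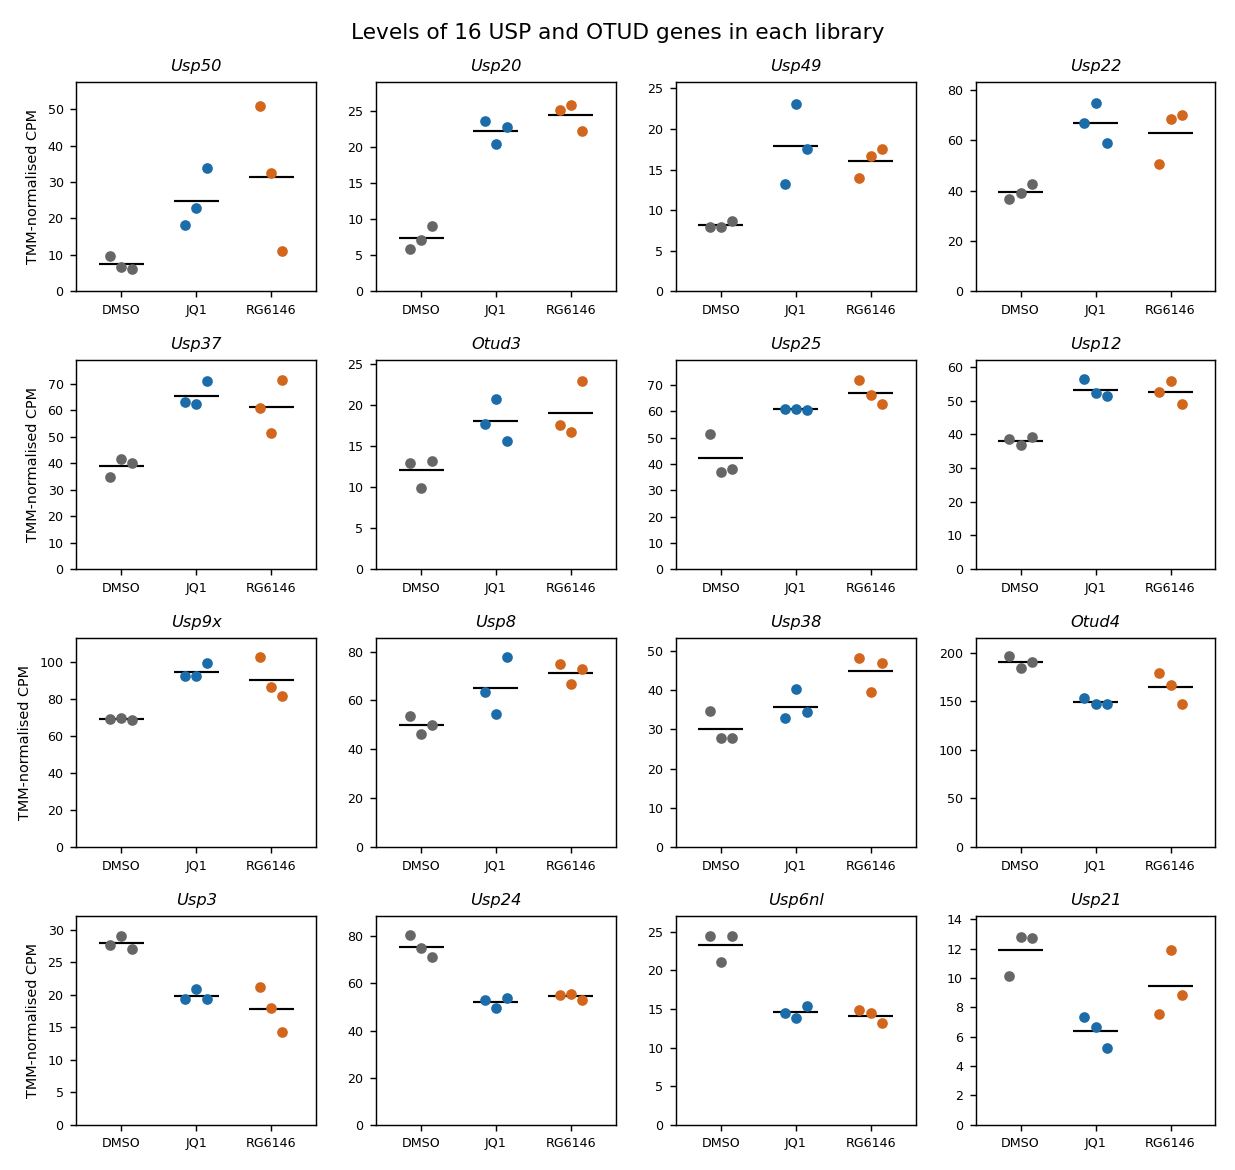
TMM-normalised CPM of the 15 members called with either compound, and of Usp50, in each library, ordered by the log2 fold change after JQ1. Points are the 3 libraries of a group, lines their mean, and every vertical axis starts at 0; Usp20 and Usp49 stand clear of DMSO in all treated libraries, while the RG6146 libraries of Usp50 spread from 11.1 to 50.9 CPM.

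Neither enzyme of free or proteasome-bound ubiquitin chains was called. Usp14, which trims ubiquitin on the proteasome, had 125, 95.2 and 110 CPM under DMSO, 107, 115 and 109 CPM under JQ1 and 112, 142 and 109 CPM under RG6146. The groups overlapped, with log2 fold changes of 0.0027 ± 0.11 (adjusted p = 0.988) and 0.13 ± 0.11 (adjusted p = 0.408) and intervals from -0.23 to 0.24 and from -0.10 to 0.37. Its last 2424 bases overlap Thoc1 on the opposite strand, which had 89.9 to 102 CPM over the 9 libraries. Usp5, which takes apart free chains, had 0.21 ± 0.09 (adjusted p = 0.0877) and 0.16 ± 0.09 (adjusted p = 0.217), with all treated libraries above DMSO. Of the remaining deubiquitinase genes, Usp2, Usp34, Usp40, Usp54 and Otud6b had log2 fold changes from -0.35 to 0.28 after JQ1 and from -0.30 to 0.60 after RG6146, and none was called.

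The members that are no active protease included a clear fall. Usp6nl (chromosome 2, 6322667 to 6446390, plus strand) had 24.4, 21.0 and 24.5 CPM under DMSO, 14.5, 13.8 and 15.4 CPM under JQ1 and 14.8, 14.4 and 13.2 CPM under RG6146. All 6 treated libraries lay below all 3 DMSO libraries. Its log2 fold changes were -0.68 ± 0.14 (adjusted p = 0.00146) and -0.72 ± 0.14 (adjusted p = 0.000986). Usp39, a splicing factor, had 0.21 ± 0.09 (adjusted p = 0.105) and 0.19 ± 0.09 (adjusted p = 0.153). Usp46os1 and Usp46os2 were not called, with 5 to 17 and 14 to 30 counts per library and log2 fold changes of -0.67 and -0.53 after JQ1 and -0.20 and -0.35 after RG6146. Their reads and those of Usp46 may not be separated.

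RG6146 was also compared with JQ1, at different doses, 2.5 and 1 µM, so that the compounds and their doses cannot be told apart. None of the 48 members was called by edgeR, and 2, Usp21 and Usp38, had an unadjusted p below 0.05. DESeq2 called none of them, and none had an unadjusted p below 0.05 there. Over all genes 0.00909% were called, which is 1 gene. Usp21 was at 0.54 ± 0.23 (adjusted p = 0.999, 95% interval 0.06 to 1.02) and Usp38 at 0.33 ± 0.12 (adjusted p = 0.999, interval 0.07 to 0.59), higher under RG6146. For Usp20 the difference was 0.13 with an interval from -0.19 to 0.45, for Usp22 -0.09 from -0.36 to 0.17, for Usp37 -0.10 from -0.34 to 0.15 and for Usp49 -0.16 from -0.55 to 0.24. These intervals, from 3 libraries a group, are not adjusted for the number of genes and give the differences that the data allow. The members called with 1 compound alone are not shown to respond to it alone.

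With ERCC scaling alone, the calls of Usp20, Usp22, Usp37, Usp49 and Usp21 after JQ1 held and those of the other 9 members ended (adjusted p 0.0872 to 0.399). After RG6146 the calls of Usp20, Usp22, Usp25, Usp37 and Usp49 held, as did no other (adjusted p 0.0866 to 0.359 for the other 8). The log2 fold changes whose calls ended moved by at most 0.02 after JQ1 and 0.06 after RG6146, so that their sizes were nearly those with TMM. No member's call ended when the replicate number was added to the ERCC scaling. The 5 members named for each compound kept that call in every alternative run in which they could be tested. Usp21 could not be tested among genes of at least 10 CPM.

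The list of other deubiquitinases, outside the symbol rule, held 26 tested genes of 29 listed. Some of them, such as Cyld, belong to the same families as the members. After JQ1, 2 were called higher and 7 lower (median log2 fold change -0.04), and after RG6146, 3 higher and 4 lower (median -0.015). These are 34.6% and 26.9% of the list, beside 28.9% and 26.0% of all tested genes. Cyld, the deubiquitinase of linear and lysine-63 chains and a brake on NF-kappaB, had 55.1, 58.0 and 55.9 CPM under DMSO, 42.5, 40.7 and 46.0 CPM under JQ1 and 51.1, 42.0 and 44.1 CPM under RG6146. It fell with both compounds, without overlap, to -0.39 ± 0.10 (adjusted p = 0.00872) and -0.30 ± 0.10 (adjusted p = 0.0386). The call after RG6146 ended without any 1 of DMSO replicate 1, 2 or 3 or RG6146 replicate 2 or 3 (adjusted p 0.0647 to 0.155) and in DESeq2 (adjusted p = 0.156). Bap1, which removes ubiquitin from histone H2A, fell by 0.57 on the log2 scale after JQ1 (adjusted p = 0.00615) and had -0.35 after RG6146 (adjusted p = 0.0776, and 0.0353 without DMSO replicate 3).

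Mindy1, of a family that trims long lysine-48 chains, was 1.69-fold lower after JQ1 (adjusted p = 0.0214) and 2.05-fold lower after RG6146 (adjusted p = 0.00364). Its end lies within Anxa9 on the other strand over 71 bases, and Anxa9 had -0.48 after JQ1 (adjusted p = 0.173) and fell by 0.89 after RG6146 (adjusted p = 0.0196). Stambpl1, a metalloprotease for lysine-63 chains, had -0.56 (adjusted p = 0.0385) and -0.86 (adjusted p = 0.00359). Both calls after JQ1 ended when 1 library was left out, for Mindy1 DMSO replicate 2 or 3 or JQ1 replicate 1 or 2 (adjusted p 0.0672 to 0.103), for Stambpl1 DMSO replicate 1 or 2, JQ1 replicate 1 or 3 or RG6146 replicate 1 (adjusted p 0.0522 to 0.177). Zranb1, an OTU enzyme also known as TRABID, rose by 0.54 (adjusted p = 0.000204) and 0.52 (adjusted p = 0.000349). Vcpip1, which works with the segregase VCP, rose by 0.44 (adjusted p = 0.00196) and 0.38 (adjusted p = 0.00703). The last called genes after RG6146 were Otub2 (-0.72, adjusted p = 0.0108, and 0.0508 to 0.0529 without DMSO replicate 1 or RG6146 replicate 1) and Uchl5 (0.24, adjusted p = 0.0297, and 0.0573 to 0.0944 without DMSO replicate 1, 2 or 3 or RG6146 replicate 1 or 2). They are named after their values were seen. Otub2 was also called after JQ1 (-0.64, adjusted p = 0.0197). That call ended without DMSO replicate 1 or 2 or JQ1 replicate 2 or 3 (adjusted p 0.0516 to 0.0836).

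Of 21 tested partners of deubiquitinases, 5 rose and 3 fell after JQ1 (median 0.17), and 6 rose and 1 fell after RG6146 (median 0.14), shares of 38.1% and 33.3% beside 28.9% and 26.0% of all tested genes. Besides the SAGA genes, Uimc1, which brings the BRCC36 deubiquitinase to damaged DNA, rose by 0.47 (adjusted p = 0.000762) and 0.41 (adjusted p = 0.00244). G3bp2, a stress granule protein that binds USP10, rose by 0.32 (adjusted p = 0.00677) and 0.36 (adjusted p = 0.00311), though not after JQ1 with library size scaling (adjusted p = 0.114). The lincRNA Gm26582 overlaps the end of G3bp2 on the other strand and rose beside it, with group means of 129, 163 and 167 CPM under DMSO, JQ1 and RG6146. Hgs, the endosomal sorting partner of the USP8 complex, had 0.45 (adjusted p = 0.0355) and 0.49 (adjusted p = 0.0226). Its calls ended without DMSO replicate 1 or 2 or JQ1 replicate 2 or 3 for JQ1 (adjusted p 0.0689 to 0.126) and without DMSO replicate 1 or RG6146 replicate 2 for RG6146 (adjusted p 0.088 to 0.0966).

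Transcripts of 19 tested substrates gave 2 rises and 2 falls after JQ1 (median -0.13), and 1 rise and 4 falls after RG6146 (median -0.14), shares of 21.1% and 26.3% beside the same 28.9% and 26.0%. Myc, which the cells also carry as a transgene that the counts do not separate, had 125, 113 and 103 CPM under DMSO, 128, 174 and 154 CPM under JQ1 and 201, 178 and 207 CPM under RG6146. It rose by 0.42 ± 0.11 (adjusted p = 0.00815) and 0.78 ± 0.11 (adjusted p = 5.9e-05), and library size scaling ended the first call (adjusted p = 0.0603). Trp53bp1, a reader of ubiquitylated histone H2A at DNA breaks, fell by 0.72 (adjusted p = 0.000619) and by 0.58 (adjusted p = 0.00377) on the log2 scale, as did Tubgcp4, which overlaps its end on the other strand, by 0.52 (adjusted p = 0.00974) and by 0.49 (adjusted p = 0.0148). Traf3, an NF-kappaB adaptor, fell by 0.41 (adjusted p = 0.007) and by 0.39 (adjusted p = 0.0111, and 0.0588 to 0.0725 without RG6146 replicate 3 or DMSO replicate 1).

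Other called substrates moved by small amounts. Mcl1, the survival protein that USP9X guards, had 0.23 after JQ1 (adjusted p = 0.0414) and 0.14 after RG6146 (adjusted p = 0.245). That call ended without DMSO replicate 1 or 3 or any 1 JQ1 library (adjusted p 0.055 to 0.17), with the replicate number as a block (adjusted p = 0.0598) and in DESeq2 (adjusted p = 0.0727). Daxx, a histone chaperone, fell by 0.28 after RG6146 (adjusted p = 0.0389) and had -0.22 after JQ1 (adjusted p = 0.105). That call ended without DMSO replicate 2 or 3 or RG6146 replicate 1 or 2 (adjusted p 0.0957 to 0.132). Trp53 was not called, at -0.23 (adjusted p = 0.109) and -0.16 (adjusted p = 0.282).

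The ubiquitin genes with the E1 and E2 enzymes, which make the signal that deubiquitinases remove, held 37 tested genes. After JQ1, 7 rose and 0 fell (median 0.12), and after RG6146, 4 rose and 0 fell (median 0.096). The shares of 18.9% and 10.8% were below the 28.9% and 26.0% of all tested genes called in either direction. Of all tested genes 13.6% and 12.5% were called higher, so the share of rises was above that after JQ1 and below it after RG6146. At an unadjusted p below 0.05, 4 and 8 further genes stood in this list. Ube2h, an E2 enzyme known from the CTLH ligase, rose by 0.89 ± 0.09 (adjusted p = 1.4e-06) and 0.82 ± 0.09 (adjusted p = 4.34e-06). Its mean level was 50.6 ± 3.29 CPM with DMSO, 94.0 ± 6.23 with JQ1 and 89.0 ± 5.82 with RG6146 (SD, n = 3). Uba6, an E1 enzyme, rose by 0.55 (adjusted p = 0.00387) and 0.57 (adjusted p = 0.00325).

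Ube2o rose by 0.39 (adjusted p = 0.017) and 0.51 (adjusted p = 0.00326), the first not without DMSO replicate 2 or 3 or JQ1 replicate 3 (adjusted p 0.0688 to 0.0739). Ube2g1 rose by 0.42 after JQ1 (adjusted p = 0.0129, and 0.0533 to 0.0534 without DMSO replicate 2 or JQ1 replicate 2) and had 0.19 after RG6146 (adjusted p = 0.267). Ube2t, named after its values were seen, was the fourth call after RG6146, at 0.38 (adjusted p = 0.0449, and 0.0575 to 0.186 without DMSO replicate 1, 2 or 3, JQ1 replicate 1 or RG6146 replicate 1 or 2).

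Of 9 proteases for the ubiquitin-like SUMO, all tested, 3 rose and 2 fell with each compound (medians -0.32 and -0.34), a share of 55.6% beside 28.9% and 26.0% of all tested genes. Senp1 fell from 60.0, 60.0 and 64.0 CPM under DMSO to 39.1, 34.3 and 35.0 CPM under JQ1 and 39.4, 40.0 and 35.9 CPM under RG6146, a log2 fold change of -0.76 ± 0.10 (adjusted p = 1.93e-05) and -0.67 ± 0.10 (adjusted p = 7.63e-05). Senp5 rose by 0.45 (adjusted p = 0.00185) and 0.48 (adjusted p = 0.00111), and Ncbp2, which overlaps its end, did not rise. Senp6, which shortens SUMO chains, fell by 0.32 (adjusted p = 0.0183) and by 0.38 (adjusted p = 0.00643), the first not without DMSO replicate 1 or JQ1 replicate 1 or 2 (adjusted p 0.0734 to 0.0852). Desi1, which shares 41340 bases with Xrcc6 on the other strand, a gene that fell, rose by 0.36 (adjusted p = 0.0234) and 0.47 (adjusted p = 0.00468), the first not without DMSO replicate 1 or 2 or JQ1 replicate 3 (adjusted p 0.0682 to 0.0873). Desi2 rose by 0.57 (adjusted p = 0.00637) and 0.44 (adjusted p = 0.0335), the second not without DMSO replicate 2 or 3 or RG6146 replicate 1 or 2 (adjusted p 0.0849 to 0.136). Senp7 had -0.36 (adjusted p = 0.196) and -0.55 (adjusted p = 0.0574, and 0.0316 without DMSO replicate 2).

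Many calls of the named list genes depended on the tool or scaling. DESeq2 ended those after JQ1 of Atxn7l2, Atxn7l3b, Mindy1, Stambpl1, Otub2, Hgs, Mcl1, Ube2o, Ube2g1 and Desi1 (adjusted p 0.0578 to 0.21). After RG6146 it ended those of Cyld, Otub2, Uchl5, Hgs, Daxx, Ube2t and Desi2 (adjusted p 0.0798 to 0.216). Library size scaling ended those after JQ1 of G3bp2, Hgs, Myc, Mcl1, Ube2o, Ube2g1 and Desi1 (adjusted p 0.0603 to 0.386) and those after RG6146 of Uchl5, Hgs, Ube2t and Desi2 (adjusted p 0.0817 to 0.235). It called Daxx lower after JQ1 (adjusted p = 0.00944) and Atxn7l3b, Bap1 and Senp7 lower after RG6146 (adjusted p 0.0189 to 0.0273). With ERCC scaling the calls after JQ1 of Atxn7l1, Atxn7l3, Trp53bp1, Ube2h and Senp1 held among the genes named, and after RG6146 those of Atxn7l1, Mindy1, Stambpl1, Myc and Ube2h.

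**Figure D4:**
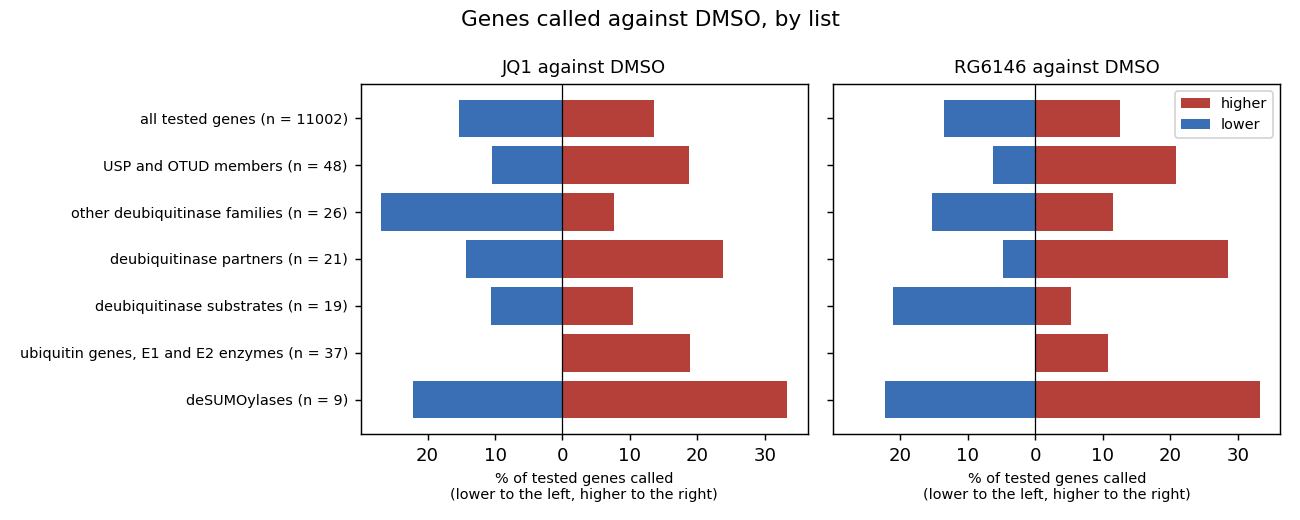
Share of tested genes called against DMSO in all genes, the members and the 5 other lists, higher to the right and lower to the left of 0. The members have 9 higher and 5 lower of 48 after JQ1 and 10 and 3 after RG6146, and the bars of the ubiquitin, E1 and E2 list point only to the right.

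In bulk RNA, fewer cells of a type and less RNA per cell cannot be told apart, which bears on each value above. The B lineage markers were present in every library, and their summed level was 698 to 792 CPM under DMSO, 384 to 396 CPM with JQ1 and 397 to 441 CPM with RG6146 (exact permutation p = 0.1 for each compound, two-sided, the smallest that 3 against 3 can give). Of the 8 markers 5 fell with each compound, among them Cd79b, Ebf1, Cd22 and Ptprc. Myeloid markers summed to 147, 693 and 342 CPM under DMSO, 74.3, 246 and 55.5 under JQ1 and 78.2, 111 and 108 under RG6146 (exact permutation p = 0.2 and 0.1, two-sided), and of 6 tested Csf1r alone was called, higher with both compounds. T and NK cell markers summed to 0.504 to 3.47 CPM over the 9 libraries, with Ncr1 at 0, and erythroid markers to 3.03 to 17.4 CPM. Stromal and endothelial markers summed to 26.6 to 35.2 CPM under DMSO and 5.30 to 11.1 CPM in the treated libraries, most of it Pecam1. Without DMSO replicate 2 and JQ1 replicate 2, which had the most myeloid counts of their groups, 9 members were called higher and 4 lower after JQ1, and 10 and 3 after RG6146. In that setting the calls of Usp3 and Otud3 after JQ1 ended (adjusted p = 0.0703 and 0.229). Among the genes named from other lists, calls after JQ1 ended there too (adjusted p 0.0606 to 0.152). These were the calls of Cyld, Bap1, Mindy1, Stambpl1, Otub2, Atxn7l2, Atxn7l3b, Hgs, Myc, Mcl1, Ube2o, Ube2g1, Senp6, Desi1 and Desi2. After RG6146 those of Cyld, Hgs, Daxx, Ube2t and Desi2 ended (adjusted p 0.0555 to 0.107), and Senp7 was called (adjusted p = 0.0347). The part of these cell types in the members' changes was not tested.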

How the data were processed

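The authors deposited 1 table of raw read counts per gene (unit: counts, not normalised) for 9 libraries. Per the submitters' processing notes, the tools include bcl2fastq (version 2.17.1.14), FastQC (0.11.5) and cutadapt (1.7). The notes also name HISAT2 (2.1.0), featureCounts from Subread, limma, and mm10 as the build. No source used here gives the annotation release, the strand setting or how multiply mapped reads were handled. GENCODE M21 gave a symbol for 42462 of 43629 Ensembl identifiers. The 1167 without one held 1.85% to 2.66% of gene counts. Library sizes and tests leave out the 92 ERCC rows.

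In R 4.3.3, edgeR 4.0.16 kept genes by filterByExpr (groups, minimum count 10), rescaled library sizes to the kept genes, applied TMM and fitted a robust quasi-likelihood model on group to all 9 libraries. Rescaling was chosen after both fits were seen; member calls were the same without it. p-values were adjusted by Benjamini-Hochberg over 11002 genes and called below 0.05. Log2 fold changes use edgeR's prior count; SE and Wald intervals are without it. Marker sums are CPM without TMM. Total gene counts of 3410161 to 5031717 set the precision.

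Alternatives were library size and ERCC scaling, DESeq2 1.42.0, other count filters, a replicate block and leaving out libraries. Code was tested on simulated data. In a simulation of the JQ1 comparison, unchanged genes made up a larger share of the calls than the threshold of 0.05 allows, so the adjusted p-values may be too small.

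Members, gene lists and tests were chosen with earlier results of these data known. Role groups, motifs and the sequences shown were chosen after values were seen. Full values were given for members called with a change of at least 1.5-fold and for Usp7, Usp1, Usp9x, Usp22, Usp28, Usp36, Usp14, Usp10 and Cyld whatever their result, and up to 6 genes with the smallest p were named per list. Promoter windows and starts are RefSeq's on GRCm38.p6. A gene overlap was listed where the other gene had at least 0.5 CPM. Some genes of these lists are not reported here by name, though the counts include them.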

Additional observations from a re-analysis of the deposited data

How the results depend on the processing

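Scaling moved the counts of called members most. After JQ1, ERCC scaling gave 5 higher and 1 lower, and library size scaling 9 lower. After RG6146, ERCC scaling gave 6 higher and 0 lower, and library size scaling 6 lower. The cause was not tested. Leaving out 1 library at a time gave 7 to 10 higher and 4 to 5 lower after JQ1, and 10 to 11 and 3 to 4 after RG6146. DESeq2 called 8 higher and 4 lower after JQ1, and 10 and 3 after RG6146, and over all genes 2147 and 1902 in place of 3184 and 2863. No called member changed its direction in any alternative run. Of 14 members called after JQ1, 5 kept the call in each alternative in which they were tested, as did 5 of 13 after RG6146. Of the named genes in other lists, 5 of 27 and 5 of 24 did.

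Values near 0 changed sign without a call. Usp14 after JQ1 was -0.13 with library size scaling, -0.0311 among genes of at least 10 CPM, -0.0131 with ERCC scaling and the replicate block, -0.0001 in DESeq2, -0.12 without DMSO replicate 2 and JQ1 replicate 2, and -0.0866 to 0.11 when 1 library was left out. Usp7 after JQ1 was -0.0605 with library size scaling. After RG6146 it was 0.0243 with ERCC scaling, 0.0240 with the block added, and -0.0246 to 0.0153 with 1 library left out. With 1 library left out, Usp28 was -0.1995 to 0.0095 after JQ1 and -0.0100 to 0.2496 after RG6146, and Atxn7 was -0.0027 to 0.2714 after RG6146. Usp36 after JQ1 was 0.0037 without DMSO replicate 2 and JQ1 replicate 2.

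The groups share the replicate numbers 1 to 3, but nothing in the labels ties libraries of a number together. The ERCC share of counts nevertheless fell from replicate 1 to 3 in each group. It was 1.51%, 1.18% and 1.13% under DMSO, 1.37%, 1.22% and 0.958% under JQ1 and 1.35%, 1.17% and 0.972% under RG6146. Whether this order bears on the calls that ERCC scaling ended was not tested. Deviations of TMM-scaled levels from the group means correlated at -0.135 to 0.138 across genes in the 9 pairs of the same number. In the other pairs they correlated at -0.156 to 0.160, and 6 of 18 best matches had the same number. With the replicate block 9 members were called higher and 5 lower after JQ1, 10 and 3 after RG6146, and 0 between the compounds. The block ended the calls of Atxn7l2, Stambpl1 and Mcl1 after JQ1 (adjusted p 0.0598 to 0.071) and of Ube2t after RG6146 (adjusted p = 0.0617) among the genes named from other lists. Leaving out DMSO replicate 2 and JQ1 replicate 2 together was chosen after seeing the data.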
